A study of Bos taurus with 10 samples.

Results

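The genes described here are 5 interferon-stimulated genes, ISG15, MX1, MX2, RSAD2 and IFI6, chosen by their Ensembl identifiers from the 27607 identifiers in the count table (ENSBTAG00000014707, ENSBTAG00000030913, ENSBTAG00000008471, ENSBTAG00000016061 and ENSBTAG00000007554, in that order). All 5 were found, and all 5 were among the 9162 genes with enough counts to be tested. Their RNA was measured in liver of pregnant Holstein dairy cows, 2 weeks before the expected date of calving, in 10 libraries. Of these, 5 were labelled over-conditioned, meaning cows with excess body fat, and 5 normal-conditioned. The labels give no body condition score, age or parity for either group, name no treatment, and do not state outright that each library is a separate cow. The p-values below therefore measure the spread between these samples, which may be technical.

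Interferons are cytokines, often released when a cell senses viral or other foreign nucleic acid. Type I interferons bind a receptor at the cell surface, and the signal passed on to the nucleus switches on interferon-stimulated genes, whose products limit viral replication. In cattle the trophoblast of the early embryo secretes a type I interferon, interferon tau, as the signal of pregnancy, and interferon-stimulated genes are widely used as its readout in blood cells and endometrium. The samples here come from the end of pregnancy.

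Libraries held between 3892292 and 6737548 counts. Levels are given as CPM (a gene's count scaled to 1000000 counts in its library). With a 3' kit, reads come from near the 3' end of a transcript whatever its length, so levels were not divided by length. In bulk liver, fewer cells of a type and less RNA per cell cannot be told apart. The table does not pair identifiers with symbols, so markers of hepatocytes, Kupffer cells, lymphocytes and other liver cells, and other genes of the interferon pathway, were not analysed here. Over-conditioned replicate 2 stood apart over all genes, since its mean Spearman correlation to the others was 0.936, where the remaining libraries had 0.9499 to 0.9568. It also held the smallest total, 3892292 counts, and whether this lowered its correlation was not tested. Counted from the highest, its rank in the 5 genes was 4 to 7 of 10, so no extreme value here came from it.

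All 5 transcripts were detected in every library, at low to moderate levels. IFI6 was the most abundant at 43.9 ± 41.5 CPM and MX1 followed at 19.6 ± 10.4 CPM. RSAD2 stood at 5.70 ± 1.76 CPM, ISG15 at 3.61 ± 1.76 CPM and MX2 at 2.42 ± 0.917 CPM (SD, n = 10 libraries each). For comparison, the median gene tested had a mean of 13.5 CPM. The order was taken from these means and is given without a test. Within libraries, MX1 was above RSAD2 in 10 of 10. RSAD2 was above ISG15 in 8 of 10, and ISG15 above MX2 in 8 of 10. IFI6 was above MX1 in 7 of 10, and the difference of their means was smaller than the SD of IFI6.

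**Figure D1:**
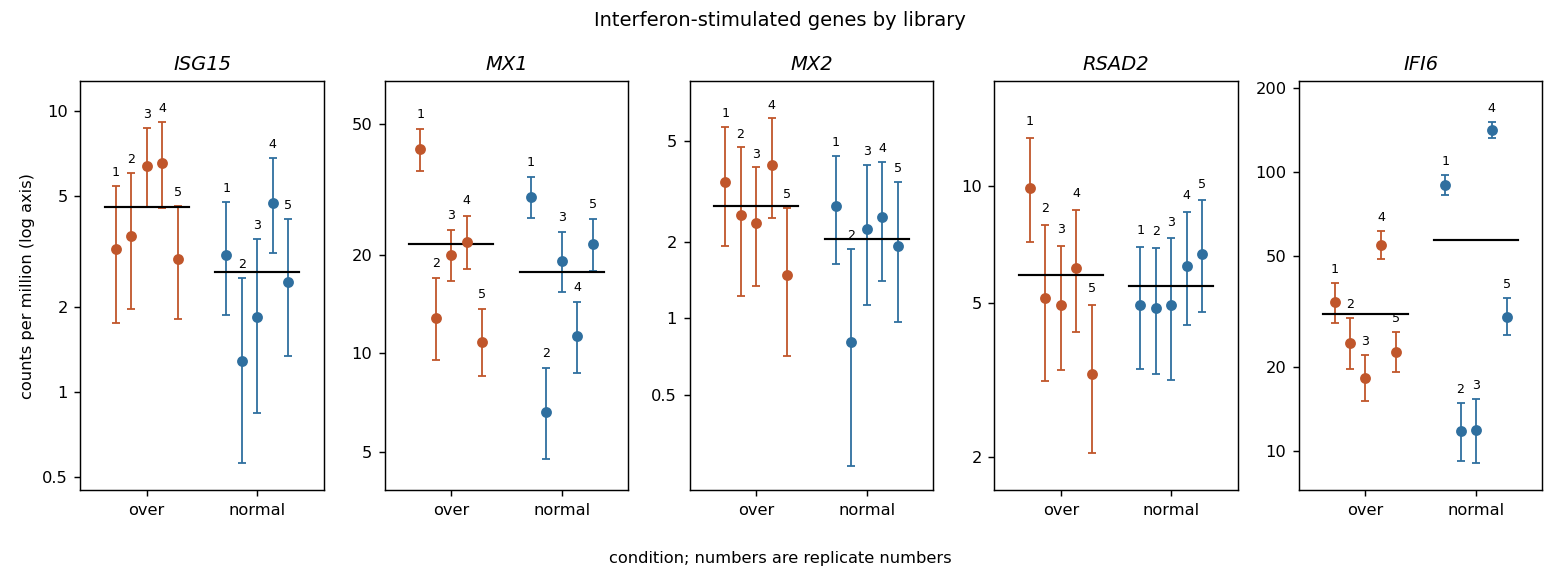
CPM (log axis, a separate scale for each gene) of the 5 interferon-stimulated genes in each over-conditioned and normal-conditioned library. Points are libraries with their replicate number, bars are exact 95% Poisson intervals for counting error only, and black lines are group means. The groups overlap in every gene, and IFI6 spans 11.8 to 141 CPM within the normal-conditioned libraries.

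The comparison of over-conditioned with normal-conditioned liver asked whether these antiviral genes differ with body fat at the end of pregnancy. None of the 5 genes passed the test between conditions. The fitted fold lay above 1 in 4 genes and below 1 in IFI6, and in each gene the 2 groups overlapped. ISG15 lay nearest to a difference. Its mean was 4.54 ± 1.76 CPM among over-conditioned against 2.68 ± 1.31 CPM among normal-conditioned libraries (SD, n = 5 each). Across all genes, edgeR's quasi-likelihood test called 0% (0 of 9162) at an adjusted p under 0.05 and 7.55% (692 genes) at an unadjusted p under 0.05. Limma-voom called 0 genes and DESeq2 called 23, or 0.315% of those to which it gave an adjusted p. Of the 5 genes here, 0 had an unadjusted p under 0.05 in edgeR. This number was 1 with limma-voom (ISG15), 1 in edgeR without the filter (IFI6), and 1 in 5 of the 10 edgeR fits that left out a library (ISG15 or IFI6). Over all genes, such a p was held by 670 of 9162 with limma-voom and 1018 of 15973 in edgeR without the filter. In the fits that left out a library it was held by 518 to 851 genes, where 9262 to 9366 were tested. None of the 5 genes had groups that did not overlap, against 1.28% of all genes tested.

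ISG15 encodes a ubiquitin-like protein that is joined to other proteins during the interferon response and is also secreted. In over-conditioned replicates 1 to 5 it stood at 3.22, 3.60, 6.37, 6.53 and 2.97 CPM. In normal-conditioned replicates 1 to 5 it stood at 3.08, 1.29, 1.85, 4.70 and 2.47 CPM. The 2 highest libraries were over-conditioned and the 3 lowest normal-conditioned, and all 5 over-conditioned libraries lay above the normal-conditioned median. The groups overlapped, however, because normal-conditioned replicate 4 ranked 3 of 10. The fitted log2 fold was 0.71 (SE 0.34, edgeR adjusted p = 0.679). The approximate 95% interval of the fold was 0.986 to 2.72. An exact two-sided permutation test of log2(CPM + 1) gave p = 0.0952, where 0.00794 is the smallest p that 5 against 5 allows. Condition held 33.5% of the variance of ISG15 between libraries, against a median of 7.49% over all genes tested. Its unadjusted edgeR p was 0.0561, and 8.24% of all genes tested had a p at least as small. Only 8 to 40 counts per library lay behind these values. Without normal-conditioned replicate 4 the log2 fold was 0.99 (edgeR adjusted p = 0.434), and without over-conditioned replicate 3 it was 0.53 (edgeR adjusted p = 0.870).

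MX1 encodes a dynamin-like GTPase that blocks the replication of influenza and other RNA viruses. It stood at 41.9, 12.8, 19.9, 21.9 and 10.8 CPM in over-conditioned replicates 1 to 5. The values in normal-conditioned replicates 1 to 5 were 30.0, 6.62, 19.1, 11.2 and 21.5 CPM. The highest and the second highest library came from different conditions, and each group held both high and low libraries. Group means were 21.5 ± 12.3 and 17.7 ± 9.12 CPM (SD, n = 5 each), with a log2 fold of 0.21 (SE 0.38, edgeR adjusted p = 0.910). The interval of the fold ran from 0.664 to 2.01. The direction reversed without over-conditioned replicate 1, where the log2 fold was −0.16 (edgeR adjusted p = 0.952). Without normal-conditioned replicate 2 the log2 fold was 0.0053 (edgeR adjusted p = 0.997). Without normal-conditioned replicate 1 it was 0.51 (edgeR adjusted p = 0.899). Condition held 3.86% of the variance of MX1.

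MX2 encodes a second protein of the same GTPase family, known in primates for restricting lentiviruses. The RefSeq gene table (assembly ARS-UCD2.0) places it next to MX1, with 0 annotated genes starting between them. Its over-conditioned values were 3.45, 2.57, 2.39, 4.04 and 1.48 CPM for replicates 1 to 5. Its normal-conditioned values were 2.77, 0.808, 2.26, 2.52 and 1.94 CPM. The upper part of the order was again shared by the conditions, and 4 of 5 over-conditioned libraries lay above the normal-conditioned median. The log2 fold was 0.36 (SE 0.34, edgeR adjusted p = 0.824) and the interval of the fold 0.771 to 2.12. Each value rests on 5 to 21 counts, so that normal-conditioned replicate 2, at 5 counts, has an exact Poisson interval of 0.262 to 1.89 CPM. The sources used here do not say how reads matching both MX genes were counted.

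RSAD2 encodes viperin, a radical SAM enzyme of the endoplasmic reticulum and lipid droplets that makes an antiviral nucleotide. It was the most even of the 5 genes. Over-conditioned replicates 1 to 5 stood at 9.90, 5.14, 4.94, 6.15 and 3.27 CPM. Normal-conditioned replicates 1 to 5 stood at 4.93, 4.85, 4.92, 6.21 and 6.69 CPM. The highest and the lowest library were both over-conditioned, and the normal-conditioned libraries lay between them. Means were 5.88 ± 2.48 and 5.52 ± 0.867 CPM (SD, n = 5 each), with a log2 fold of 0.01 (SE 0.25, edgeR adjusted p = 0.993). RSAD2 was the 1 gene of the 5 whose interval, 0.696 to 1.46, lay within 2-fold in either direction. Among all genes tested this held for 82.5%.

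IFI6 encodes a small membrane protein that opposes cell death and limits flaviviruses. It stood at 34.1, 24.4, 18.3, 54.8 and 22.7 CPM in over-conditioned replicates 1 to 5. In normal-conditioned replicates 1 to 5 it stood at 89.96, 11.8, 11.9, 141 and 30.3 CPM. The normal-conditioned group thus held both the 2 highest and the 2 lowest libraries, and every over-conditioned value lay between them. The over-conditioned mean was 30.9 ± 14.6 CPM and the normal-conditioned mean 57.0 ± 56.9 CPM (SD, n = 5 each). The log2 fold was −0.95 (SE 0.56, edgeR adjusted p = 0.750) with an interval of the fold from 0.23 to 1.2. Without normal-conditioned replicate 4 the log2 fold was −0.32 (edgeR adjusted p = 0.875). On log2(CPM + 1), which gives high libraries less weight, the difference was −0.31 (exact two-sided permutation p = 0.706), and condition held 2.03% of the variance.

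**Figure D2:**
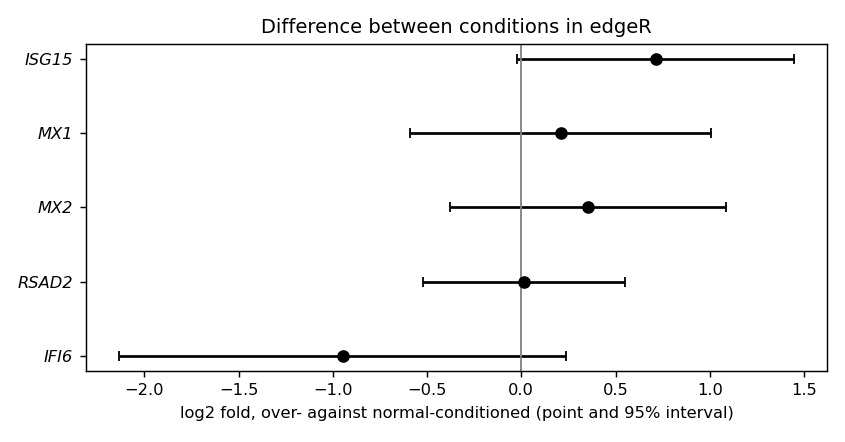
Fitted log2 fold of over-conditioned over normal-conditioned libraries for each gene in edgeR, with approximate 95% intervals (5 libraries a group). Every interval includes 0; that of ISG15 starts at −0.02, and that of IFI6 is the widest.

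The median log2 fold over the 5 genes was 0.21, beside 0.01 over all genes tested, and 51.7% of all genes had a fold above 1. The median absolute log2 fold was 0.36 beside 0.17. These medians describe 5 genes with few counts or wide spread and carry no test.

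IFI6 and MX1 varied far more between libraries than most genes of similar level. IFI6 ranged 11.95-fold from the lowest to the highest library. Of the 4334 genes with a mean of 10 to 100 CPM, 0.900% ranged at least as widely, and their median range was 1.92-fold. MX1 ranged 6.33-fold, a range reached by 2.10% of those genes. Among the 3809 genes under 10 CPM, where the median range was 2.95-fold, ISG15 ranged 5.06-fold, MX2 5.00-fold and RSAD2 3.03-fold. Ranges at least that wide were found in 16.7%, 17.4% and 47.5% of these genes.

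Counting error is a small part of the spread in IFI6 and MX1 and a large part in MX2. IFI6 had a coefficient of variation of 94.4% between libraries, where counting alone gives 6.36%. MX1 had 53.2% against 9.85%. The corresponding values were 48.9% and 22.6% for ISG15, 30.9% and 18.3% for RSAD2, and 37.9% and 28.0% for MX2. The variance of MX2 was 2.00 times that of counting error and the variance of IFI6 was 225 times. The biological coefficient of variation fitted by edgeR was 58.9% for IFI6 and 40.8% for MX1, reached by 1.07% and 4.44% of all genes tested. It was 32.3% for ISG15, 27.5% for MX2 and 23.5% for RSAD2, beside a median gene at 21.8%.

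The second question was whether the 5 genes rise and fall together from library to library. Correlations between them were positive in 10 of 10 pairs but mostly moderate, with a median Pearson r of 0.52 over the 10 libraries on log2(CPM + 1). None passed after adjustment over the 10 pairs: 0 of 10 had an adjusted p under 0.05, and 2 of 10 had an unadjusted p under 0.05. MX1 and MX2 were the closest pair, with r = 0.76 (permutation p = 0.0115, adjusted p = 0.115) and Spearman rho = 0.75 (permutation p = 0.0176, adjusted p = 0.102). ISG15 and MX2 followed with r = 0.70 (permutation p = 0.0247, adjusted p = 0.123) and rho = 0.72 (permutation p = 0.0240, adjusted p = 0.102). MX1 and RSAD2 had r = 0.61 (permutation p = 0.0611, adjusted p = 0.204) and rho = 0.60 (permutation p = 0.0734, adjusted p = 0.147). In the other 7 pairs r ran from 0.15 for ISG15 and RSAD2 to 0.55 for MX2 and RSAD2, with adjusted permutation p from 0.211 to 0.687.

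**Figure D3:**
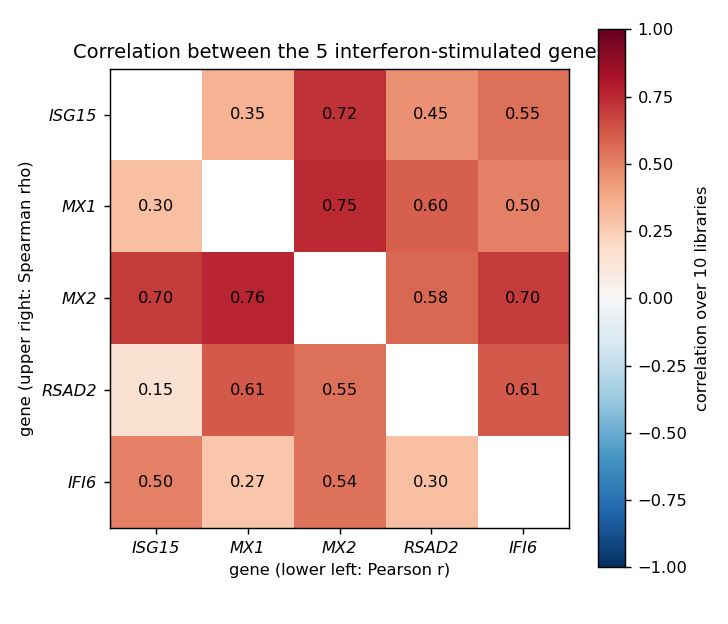
Correlation between each pair of the 5 genes over 10 libraries on log2(CPM + 1), with Pearson r at the lower left and Spearman rho at the upper right. All 10 pairs are positive; MX2 has the 2 highest values of r, 0.76 with MX1 and 0.70 with ISG15, and ISG15 with RSAD2 is lowest at 0.15.

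The correlations rested in part on single libraries. MX1 and RSAD2, and MX2 and RSAD2, had their lowest r when over-conditioned replicate 1 was left out. There r fell from 0.61 to 0.32 (exact permutation p = 0.399) and from 0.55 to 0.45 (exact permutation p = 0.221). In the other 8 of 10 pairs, r was lowest when normal-conditioned replicate 2 was the library left out. In CPM of the library total, normal-conditioned replicate 2 had the lowest level of ISG15, MX1, MX2 and IFI6, 4 of the 5 genes. It had the second lowest of RSAD2. After TMM scaling, which corrects for the makeup of each library, it stayed lowest in ISG15, MX1 and MX2. Its IFI6 was then 12.7 CPM, above normal-conditioned replicate 3 at 12.4 CPM. Its RSAD2 was then 5.23 CPM, above normal-conditioned replicate 1 at 5.12 CPM. Normal-conditioned replicate 2 had a total of 6189459 counts, within the range of the others. Without it the r of MX1 and MX2 fell from 0.76 to 0.58 (exact permutation p = 0.0993), that of ISG15 and MX2 from 0.70 to 0.49 (exact permutation p = 0.180), and that of ISG15 and MX1 from 0.30 to −0.08. The number of pairs with an unadjusted p under 0.05 was then 0, and the median r was 0.36. Without the 2 libraries farthest from the median of the first gene of each pair, the r of MX1 and MX2 was 0.44 (exact permutation p = 0.279) and that of ISG15 and MX2 was 0.22 (exact permutation p = 0.619). Both relations thus rest on those libraries, although leaving out the extremes of a gene also narrows its range, and 8 libraries remain. MX2 and RSAD2 went the other way, from 0.55 to 0.74 (exact permutation p = 0.0421, adjusted p = 0.421). RSAD2 and IFI6 also rose, from 0.30 to 0.51 (exact permutation p = 0.205, adjusted p = 0.831).

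In CPM of the library total, over-conditioned replicate 4 was highest in ISG15 and MX2 and ranked 3 of 10 in MX1 and IFI6. Over-conditioned replicate 1 was highest in MX1 and RSAD2 and ranked 2 in MX2, but 5 in ISG15. Over-conditioned replicate 5 was lowest in RSAD2 and second lowest in MX1 and MX2, with the largest total of the 10 libraries. High and low libraries were found in both conditions.

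Within conditions the correlations had a similar median. On deviations from each group's mean the median r was 0.60, with 0.76 for MX1 and MX2 (exact permutation p = 0.0203, adjusted p = 0.102) and 0.72 for ISG15 and IFI6 (exact permutation p = 0.0258, adjusted p = 0.102). The library names hold a letter and a number whose meaning the labels do not give. Within the 8 libraries that carry the number 7, the r of MX1 and MX2 was 0.84 (exact permutation p = 0.00841, adjusted p = 0.0841). This was the 1 pair of 10 with an unadjusted p under 0.05 there. ISG15 and MX2 had r = 0.70 in these libraries (exact permutation p = 0.0526, adjusted p = 0.184). The other 2 libraries are both normal-conditioned and too few for a value. Against the log2 total count of the library, RSAD2 and MX2 had r of −0.52 and −0.47, which did not pass (permutation p = 0.128 and 0.176, adjusted p = 0.439 for each over 5 genes). Their rho was −0.56 and −0.43 (permutation, adjusted p = 0.484 and 0.548). Without the 2 totals farthest from the median, Pearson r was −0.52 and −0.42. In ISG15, MX1 and IFI6 the same r was −0.02, −0.29 and 0.15. With the total count removed by regression, the r of ISG15 and MX2 rose from 0.70 to 0.78 (permutation p = 0.00852, adjusted p = 0.0734). That of MX2 and RSAD2 fell from 0.55 to 0.41 (permutation p = 0.247, adjusted p = 0.352). The median r over the pairs was 0.48, beside 0.52 without the regression, and 0 of 10 pairs passed after adjustment.

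Positive correlation was also common outside the interferon-stimulated genes. Between 63.6% and 71.0% of all other genes tested correlated positively with each of the 5 genes in CPM of the library total, and the median r with them was 0.11 to 0.20. After scaling by TMM, which corrects for the makeup of each library, that median was −0.0022 to 0.021, and the median r among the 5 genes was 0.43. MX2 was the 88th of 9161 genes in its correlation with MX1, and 0.961% of genes correlated with MX1 at least as well. Seen from MX2, MX1 was 182nd, with 1.99% of genes at least as close. MX2 was 285th for ISG15, with 3.11% at least as close. By contrast, RSAD2 was 4548th for ISG15, in the middle of all genes. Of the 20 rankings of one of the 5 genes by another, 4 lay within the top 5% of genes, all of them between MX2 and either MX1 or ISG15. With TMM this number was 6. These positions are descriptions over 10 libraries that share depth and makeup.

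**Figure D4:**
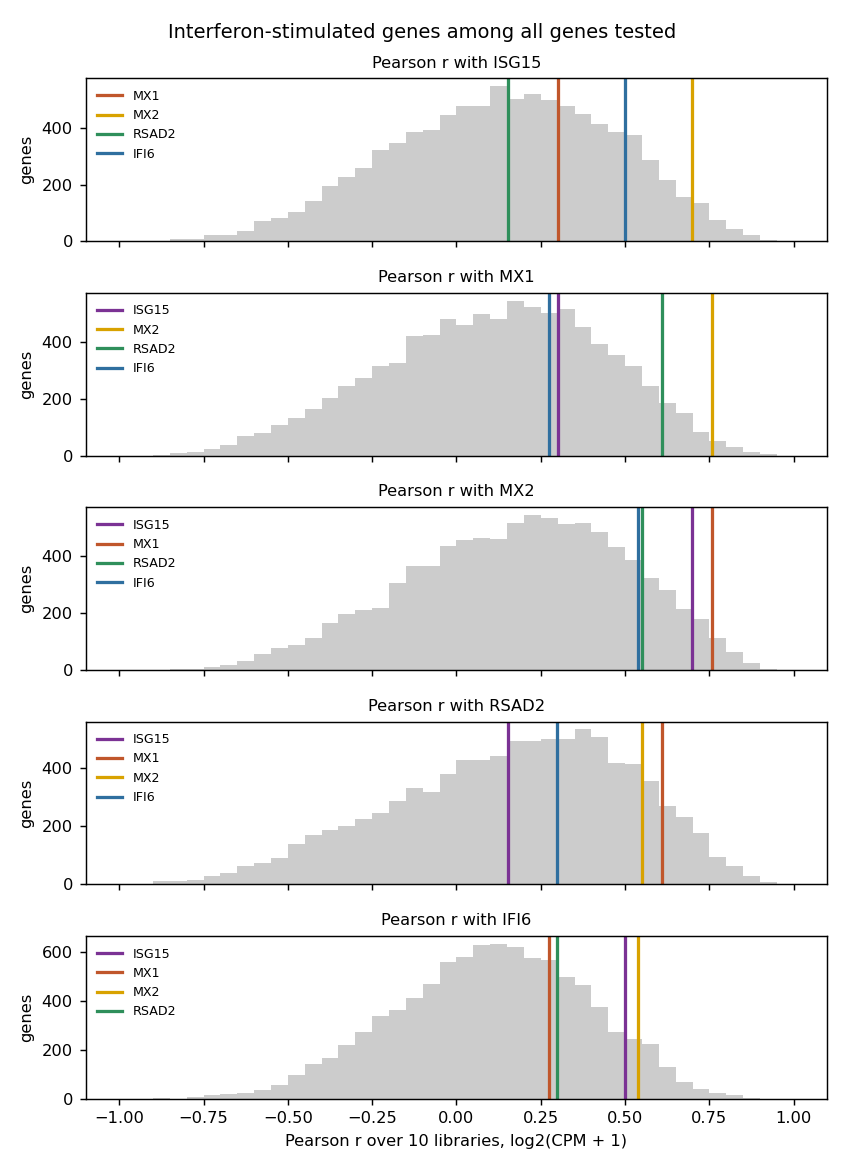
For each of the 5 genes, the number of genes tested (grey, of 9161) at each Pearson r with it over 10 libraries on log2(CPM + 1), with the other 4 genes as coloured lines. MX2 lies in the upper tail for MX1 (88th of 9161) and for ISG15 (285th), while RSAD2 lies in the middle for ISG15.

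IFI6 and MX1, the 2 most abundant genes of the set, stood in very different ratios from library to library. They together held 72.6% to 91.9% of the summed CPM of the 5 genes, and their r was 0.27 (permutation p = 0.443, adjusted p = 0.492) and their rho 0.50 (permutation p = 0.145, adjusted p = 0.181). The ratio of IFI6 to MX1 ran from 0.624 in normal-conditioned replicate 3 to 12.5 in normal-conditioned replicate 4, a 20.1-fold spread. In over-conditioned libraries it ran from 0.813 to 2.50. Normal-conditioned replicate 4 had the highest IFI6 of all libraries, 141 CPM from 840 counts, and ranked 3 of 10 in ISG15, but only 8 of 10 in MX1, 11.2 CPM from 67 counts. Without that library the r of IFI6 and MX1 was 0.62, its highest value among those with 1 library left out. The ratio of the neighbouring genes MX1 and MX2 was steadier, from 4.47 to 12.1, a 2.72-fold spread. The sum over the 5 genes lay between 41.3 and 93.4 CPM among over-conditioned and between 25.4 and 166 CPM among normal-conditioned libraries. This sum mostly follows IFI6 and MX1.

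**Figure D5:**
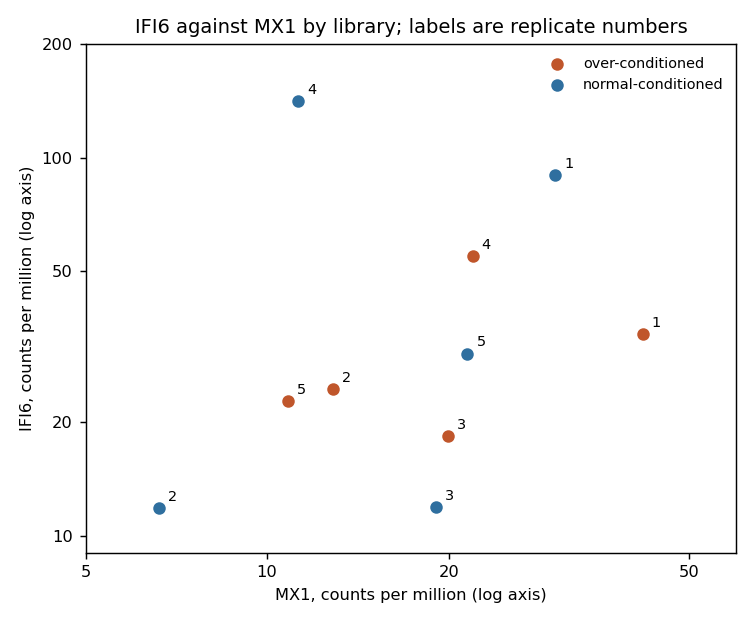
IFI6 against MX1 in CPM (log axes) in each library, coloured by condition and labelled by replicate number. Normal-conditioned replicate 4 combines the highest IFI6 (141 CPM) with a low MX1 (11.2 CPM), and normal-conditioned replicate 2 is lowest in both.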

How the data were processed

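The deposited values are whole counts for each Ensembl gene, not normalised, in 10 libraries made with a 3' mRNA kit and read as single 75-base reads, per the labels' protocols. RSEM 1.3.1, STAR 2.6.0c and cutadapt 1.18 are listed, with the builds bosTau9 and ARS-UCD1.2, in the submitters' processing notes, which give no roles. The sources used here do not say whether RSEM estimates were rounded. Libraries of a group differed by more than counting noise, so none was taken for a repeat deposit of another; this does not show that they come from separate cows. Genes were filtered with filterByExpr (minimum count 10, minimum total 15), scaled by TMM and compared in edgeR 4.0.16 by the quasi-likelihood test with Benjamini-Hochberg adjustment over all 9162 genes at 0.05. Folds are over- over normal-conditioned, and intervals were built from the fold and its F statistic. Correlations used log2(CPM + 1) and 100000 permutations, or all permutations under 10 libraries and within groups; Poisson intervals are exact at 95%. Alternatives used DESeq2 1.42.0, limma 3.58.1 (R 4.3.3), other scalings, filters and pseudocounts, a replicate block, and leaving out libraries. SciPy 1.17.1 and Python 3.11.15 were used. Scripts were tested on simulated data.

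The 5 genes, their symbols and the lists were chosen with earlier results of these data known. The rule for named genes gave the 5 genes and, with no symbols, the 2 identifiers with the highest and the 2 with the lowest r with their mean. Pathway, acute phase and cell type lists and the search of promoters were not run, since 0 of the identifiers matched the gene table used here and no sequence was given. The total count and the library names were examined after the data were seen. Same-numbered libraries of the 2 groups showed no pairing: the correlations of their deviations ran from −0.218 to −0.00016.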

Additional observations from a re-analysis of the deposited data

How the results depend on the processing

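No gene of the 5 passed in any of the 18 other fits, though DESeq2 gave ISG15 and MX2 no adjusted p; over these fits the adjusted p of ISG15 ran from 0.434 to 0.885 and that of IFI6 from 0.567 to 0.912. Also, 0 of 10 pairs passed under any of 18 other settings. Over all genes DESeq2 called 23, and leaving out single libraries gave 0 to 1 genes, the 1 without normal-conditioned replicate 1; the cause was not tested. With the replicate block 0 genes were called, 0 of the 5 among them, and the log2 fold of RSAD2 turned to −0.030; 502 genes had an unadjusted p under 0.05. The numbers show no pairing: the closest library of the other group had the same number in 0 of 10 cases. Without a filter 1018 of 15973 and with the stricter filter 430 of 5368 genes had an unadjusted p under 0.05, against 692 of 9162; without single libraries there were 518 to 851. The stricter filter, 10 CPM in 5 libraries, left out ISG15, MX2 and RSAD2. RSAD2 turned to −0.073 with limma-voom, and without single libraries its log2 fold ran from −0.24 to 0.15. MX1 ran from −0.16 to 0.51, MX2 from 0.16 to 0.51, ISG15 from 0.53 to 0.99 and IFI6 from −1.21 to −0.32. The r of ISG15 and RSAD2 was −0.028 with TMM, and that of ISG15 and MX1 −0.17 without the 2 libraries farthest from the median and −0.083 to 0.40 without single libraries; the cause of these turns was not tested. ISG15 and MX2 had the fewest counts, 5 to 40 per library.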

Other observations

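Among the genes tested, leaving out the 5 themselves, ENSBTAG00000007543 and ENSBTAG00000017905 followed the mean log2(CPM + 1) of the 5 genes most closely over the 10 libraries, with a Pearson r of 0.94 and 0.93. ENSBTAG00000017905 had a mean of 25.9 ± 5.39 CPM among over-conditioned against 20.9 ± 7.13 CPM among normal-conditioned libraries (SD, n = 5 each). Its lowest value, 11.1 CPM, was that of normal-conditioned replicate 2 and its highest, 31.3 CPM, that of over-conditioned replicate 4. It correlated with MX2 at 0.88, with ISG15 at 0.83, with IFI6 at 0.67, with MX1 at 0.63 and with RSAD2 at 0.55. ENSBTAG00000007543 had a mean of 1.72 ± 0.656 CPM among over-conditioned against 1.90 ± 1.05 CPM among normal-conditioned libraries (SD, n = 5 each). It was also lowest in normal-conditioned replicate 2, at 0.323 CPM, and highest in normal-conditioned replicate 4, at 2.85 CPM. In normal-conditioned replicate 2, MX2 at 0.808 CPM rested on 5 counts, so the value of ENSBTAG00000007543 there rests on fewer. ENSBTAG00000030282 and ENSBTAG00000049112 went most strongly the other way, with r of −0.79 each. They ranged from 0.961 to 2.37 CPM and from 0.921 to 3.55 CPM, so few counts lie behind their values too. These 4 identifiers are the extremes of 9157 genes compared over the same 10 libraries, and no symbol was at hand for them. The mean they follow was itself closest to MX2 (r = 0.90) and IFI6 (r = 0.81) and least close to RSAD2 (r = 0.60).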
